A study of Mus musculus with 6 samples.

Results

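The genes described here encode laminins, other matrix glycoproteins and proteoglycans, chosen by their symbols as 45 of the 25160 features in the count table. They were measured by RNA sequencing of poly(A) RNA in the fourth mammary glands, freed of lymph nodes, of female wild-type (WT) FVB/N mice, an inbred strain. The metformin group (3 mice) received metformin, a biguanide that lowers blood glucose, at 200 mg/kg each day by intraperitoneal injection between 8 and 18 weeks of age, which is 10 weeks, and the control group (3 mice) received saline over the same weeks. Each library came from 1 mouse. The glands were sequenced as whole tissue, which the labels describe as mixed mammary cells, so epithelium, fat, stroma, vessels and blood cells all contributed RNA. Skeletal muscle markers were also read at high levels in every library.

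The extracellular matrix of the mammary gland has a sheet-like part and a fibrous part. The sheet, the basement membrane, surrounds ducts, alveoli, adipocytes and vessels, and is built from laminin heterotrimers of an alpha, a beta and a gamma chain that are joined to collagen IV by nidogens and heparan sulfate proteoglycans. The fibrous part between these structures is produced largely by fibroblasts, and holds elastic fibers, fibronectin and collagens coated with small leucine-rich proteoglycans. Matricellular proteins such as tenascin C, thrombospondins and osteopontin bind cells and matrix without forming its scaffold.

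Total counts ranged between 37705492 and 47370885 in the metformin mice and between 35375365 and 47056181 in the control mice, which left all 45 genes above the filter on low counts. Levels are given as CPM, counts scaled to library size, after TMM normalization, which scales each library by the trimmed mean of its ratios to a reference library, or as FPKM, fragments scaled to transcript length and to the number of mapped fragments, where genes are set beside one another. Differences are log2 fold changes, metformin over control, with a standard error (SE), and come from a quasi-likelihood test in edgeR over 15925 features, whose p-values were adjusted by Benjamini-Hochberg. A gene is called past the thresholds where its fold change reached 1.5 and its unadjusted p lay under 0.01, the limits that the study's methods state. An exact permutation test of 3 mice against 3 cannot give a two-sided p below 0.1. In the summed level of 7 milk genes, control mouse 3 stood apart from the other controls and lay within the metformin range. This sum was 260, 329 and 829 CPM in metformin mice 1, 2 and 3, against 40602, 35363 and 616 CPM in control mice 1, 2 and 3. Wap had no count in metformin mouse 3 or control mouse 3. Over all features tested, log2 CPM of control mouse 3 correlated at 0.965, 0.953 and 0.967 with metformin mice 1, 2 and 3. Its correlations with control mice 1 and 2 were 0.950 and 0.946. What set control mice 1 and 2 apart from control mouse 3 was not tested, and it cannot be told apart from the treatment difference.

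Of the 45 matrix genes, Spp1, which encodes osteopontin, and Tnc, which encodes tenascin C, fell past the thresholds in the metformin mice, and none rose past them. These 2 genes are 4.44% of the 45, while 1.28% of all features tested were lower past the same thresholds, 0.421% were higher and 1.70% passed in either direction. The genes were not chosen independently of earlier results of these libraries, so such shares are given as a description. At an unadjusted p under 0.05, 7 of the 45 were lower (15.6%), against 4.85% of all features, and 0 were higher, against 2.68%. No matrix gene had an adjusted p under 0.05, and neither had any other feature (0% of those tested), the smallest value being 0.539. The levels of 5 of the 45 genes were lower in every metformin mouse than in every control mouse (11.1%, against 7.01% of all features), and none was higher in every metformin mouse (against 6.24%). The 45 log2 fold changes had a median of -0.08, with 28 below 0 and 17 above it, and the median over all features tested was 0.01. This balance depended on single mice, since 16 genes lay below 0 and 29 above it without control mouse 3 (median 0.24), and 20 below and 25 above without metformin mouse 2 (median 0.08). Of the 45 genes, 33 had a log2 fold change between -0.5 and 0.5.

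**Figure D1:**
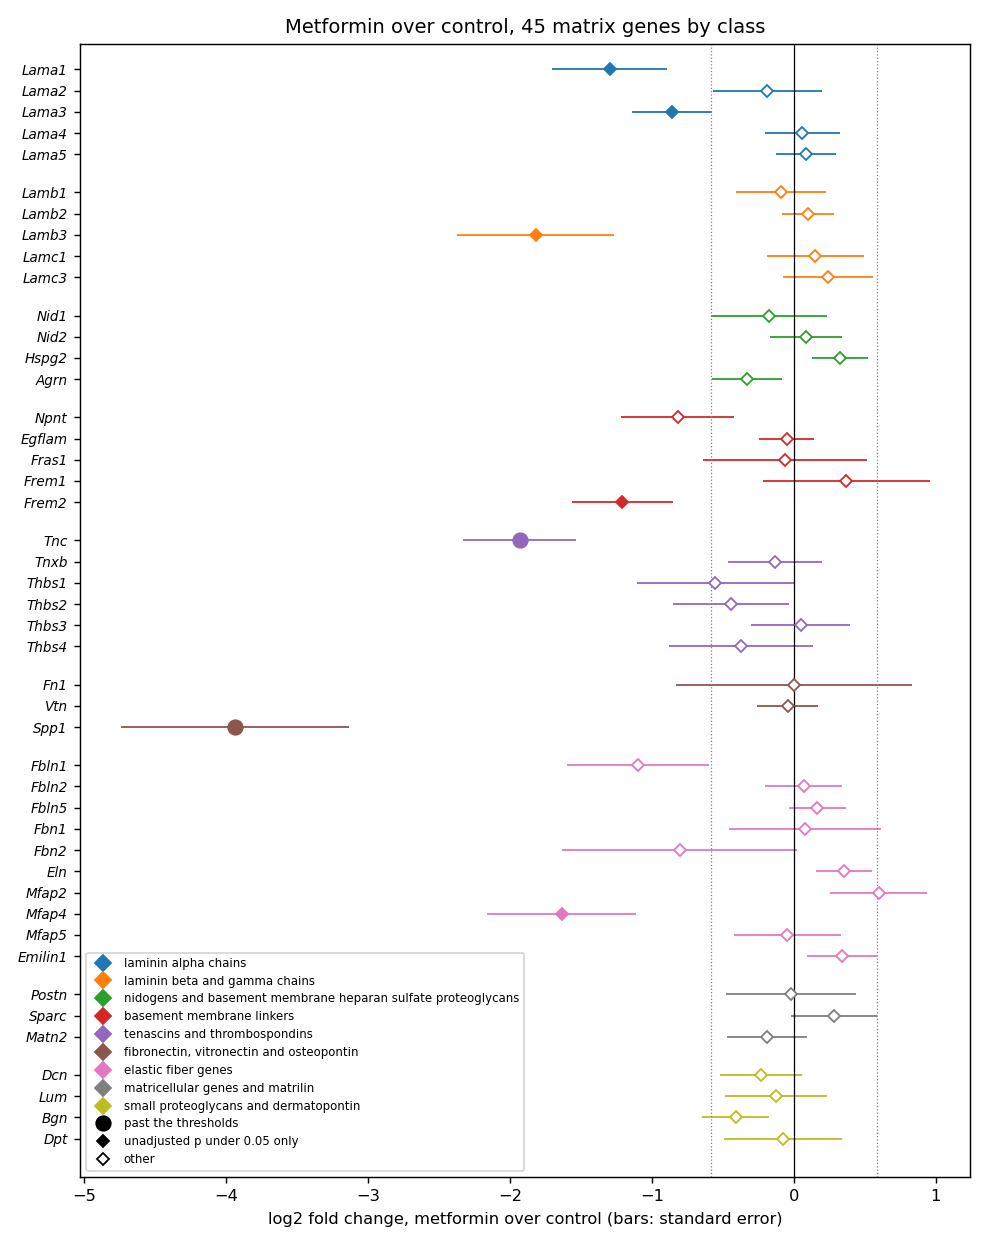
Log2 fold change, metformin over control (x axis), of the 45 matrix genes grouped by class, with bars for the standard error and dotted lines at a fold change of 1.5. Spp1 at -3.94 and Tnc at -1.93 lie farthest to the left as large circles, 5 filled diamonds mark the genes with only an unadjusted p under 0.05, and the other 38 genes lie between -1.10 and 0.60.

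The count of lower genes depended on control mouse 3 and on the test. Without control mouse 3, 5 matrix genes were lower past the thresholds (11.1%, against 3.19% of all features in that fit), namely Spp1, Tnc, Lama1, Lamb3 and Mfap4, and 3 had an adjusted p under 0.05 (6.67%, against 0.573% of all features). With control mouse 3 as the only control, 0 of the 45 passed, against 1.65% of all features in that fit, a share that amounts to less than 1 gene of 45. DESeq2, the tool named in the study's methods, placed 7 of the 45 lower past the thresholds (15.6%, against 2.47% of all features) and 3 at an adjusted p under 0.05 (6.67%, against 1.00%), which were Spp1, Tnc and Lamb3.

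Osteopontin is a secreted phosphoprotein that binds integrins and CD44, and mammary epithelium makes it in quantity in pregnancy and lactation. Spp1 lies at chr5:104435118-104441050 on the plus strand (GRCm38, GENCODE vM21), and 18.75% of its exonic bases are shared with Gm42793 on the same strand. Its level was 45.1, 49.9 and 73.1 CPM in metformin mice 1, 2 and 3, against 1243, 1212 and 122 CPM in control mice 1, 2 and 3. The groups did not overlap, but control mouse 3 lay much nearer to the metformin mice than to the other 2 controls. The log2 fold change was -3.94 (SE 0.80), a 15.3-fold lower level in metformin mice, past the thresholds, with adjusted p = 0.539 (edgeR quasi-likelihood test). It was -4.45 without control mouse 3 (adjusted p = 0.00560) and -1.12 with control mouse 3 as the only control, short of the thresholds, so the size of the difference rested on controls 1 and 2. In whole tissue, fewer cells of a type and less RNA per cell cannot be told apart.

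Tenascin C is a large hexameric glycoprotein of stroma that is being remodeled, and in the mammary gland it is found around growing ducts and in tumors. Tnc lies at chr4:63959785-64047015 on the minus strand, and 2.26% of its exonic bases are shared with 8030451A03Rik on the plus strand. The level of Tnc was 7.40, 11.1 and 11.7 CPM in the metformin mice, against 43.1, 54.0 and 18.1 CPM in the control mice. As for Spp1, the groups did not overlap and control mouse 3 was the lowest of the controls. The log2 fold change of Tnc was -1.93 (SE 0.40), a 3.82-fold lower level in metformin mice, past the thresholds, with adjusted p = 0.539. It was -2.27 without control mouse 3 (adjusted p = 0.0216) and -0.85 with that mouse as the only control, short of the thresholds.

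The promoters of Spp1 and Tnc are printed because these were the only genes of the 45 past the thresholds. Both sequences are the 250 bases before a transcription start of the gene in RefSeq (GRCm38.p6), 5′ to 3′ on the strand of the gene, and neither window overlaps an exon. Capitals mark matches to TATAAA, the letters of a TATA box, and to TGTGGT, the core of RUNX sites. The latter reads ACCACA where it lies on the opposite strand.
Spp1, chr5:104434861-104435110, plus strand: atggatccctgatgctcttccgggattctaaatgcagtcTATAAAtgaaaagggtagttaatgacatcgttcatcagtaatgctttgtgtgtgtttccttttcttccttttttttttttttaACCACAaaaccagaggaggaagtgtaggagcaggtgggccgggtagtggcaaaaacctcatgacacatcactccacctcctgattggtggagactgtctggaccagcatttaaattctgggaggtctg
Tnc, chr4:64047016-64047265, minus strand: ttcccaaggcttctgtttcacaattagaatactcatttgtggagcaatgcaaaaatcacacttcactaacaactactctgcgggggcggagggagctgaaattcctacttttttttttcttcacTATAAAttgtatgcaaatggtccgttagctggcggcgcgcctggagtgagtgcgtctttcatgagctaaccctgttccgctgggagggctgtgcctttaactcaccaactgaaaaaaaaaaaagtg
In Spp1, TATAAA stood 211 to 206 bases before the start and the RUNX core 128 to 123 bases before it on the opposite strand, and in Tnc TATAAA stood 126 to 121 bases before the start. Matches were sought on both strands in 32851 mouse promoter windows of the same length, of which 12.4% held TATAAA and 14.0% held TGTGGT. Other motifs sought were TGANTCA of AP-1 (6.75% of windows) and TTCNNNGAA of STAT factors (7.02%), whose letters were not in either window. Over the 40 windows found for 29 of the 45 matrix genes, 15% held TATAAA, 7.5% TGTGGT, 7.5% TGANTCA and 5.0% TTCNNNGAA. A match describes the letters of a window and does not show that a factor bound there or that TATAAA served as a TATA box. RefSeq gives Spp1 and Tnc another start each, whose windows (chr5:104435942-104436191 and chr4:64046937-64047186) are not printed because they overlap exons, of Gm42793 and Tnc.

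**Figure D2:**
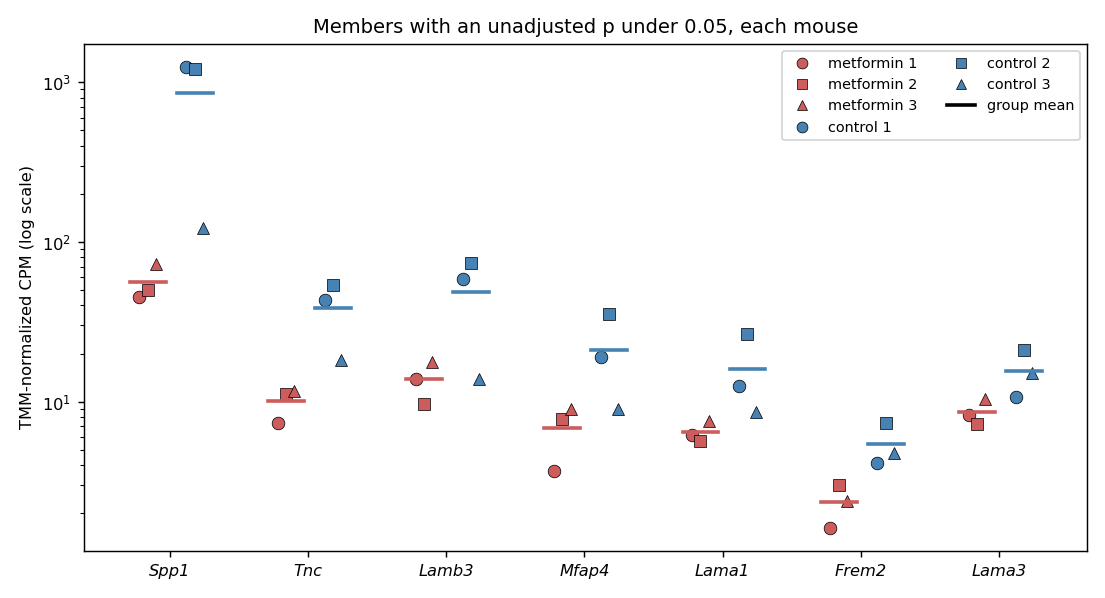
TMM-normalized CPM on a log scale (y axis) of the 7 matrix genes with an unadjusted p under 0.05 in each of the 6 mice, with metformin mice in red left of control mice in blue, a symbol for each mouse number and a line at each group mean. For Spp1 the metformin mice lie at 45.1 to 73.1 and the control mice at 122 to 1243, and the triangle of control mouse 3 is the lowest control for Spp1, Tnc, Lamb3, Mfap4 and Lama1.

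Epithelial, milk and macrophage markers were measured in the same libraries. The summed level of 6 general epithelial markers was 570, 402 and 471 CPM in the metformin mice, against 627, 1200 and 581 CPM in the control mice, and all 6 had a log2 fold change below 0, with 1 past the thresholds. With the mean of these markers as a covariate in the edgeR fit, 0 of the 45 matrix genes passed the thresholds, against 0.446% of all features in that fit and 1.70% without the covariate, and the log2 fold changes were -3.18 for Spp1 and -1.38 for Tnc (adjusted p = 0.851 each). Of the 6 milk genes tested, 4 were lower past the thresholds. Macrophages are another source of osteopontin, and the sum of 8 macrophage markers ranged between 333 and 890 CPM in metformin mice and between 568 and 813 CPM in control mice. Of their log2 fold changes, 6 lay below 0 and 2 above it (median -0.37). At an unadjusted p under 0.05, 1 of the 8 was lower (edgeR), and 0 of 8 passed the thresholds. The epithelial covariate, a mean of log2 CPM, was 5.75 to 6.17 in the metformin mice and 6.22 to 7.34 in the control mice. As the groups did not overlap in it, that fit cannot tell epithelial content from treatment. The part of these cells in the lower Spp1 and Tnc levels was not tested.

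Among the laminin alpha chains, the low-abundance Lama1 and Lama3 were lower in every metformin mouse, while the abundant Lama4, Lama2 and Lama5 were not. Lama4, the alpha chain of vessel and adipocyte basement membranes, had the highest level per length in its class, with 18.4 ± 4.88 FPKM in metformin mice and 18.7 ± 7.79 FPKM in control mice (SD, n = 3 each). In CPM it was 127, 97.4 and 141 in the metformin mice, against 94.9, 93.1 and 163 in the control mice, and its log2 fold change was 0.06 (SE 0.27). The highest and the lowest level of Lama4 both belonged to control mice. Lama2, the chain of muscle and nerve laminins, and Lama5, a chain widespread in adult epithelia and vessels, had log2 fold changes of -0.19 (SE 0.38) and 0.09 (SE 0.21).

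Lama1 encodes the alpha chain of the laminin that forms early in development and, in the human breast, is made by myoepithelial cells. Lama1 (chr17:67697259-67822647, plus strand) had 6.20, 5.68 and 7.56 CPM in the metformin mice, against 12.5, 26.7 and 8.60 CPM in the control mice. The gap between the groups was narrow, since control mouse 3 stood just above metformin mouse 3. The log2 fold change of Lama1 was -1.30 (SE 0.41), short of the thresholds, with adjusted p = 0.564, and it was -1.59 without control mouse 3, where it passed them, and -0.31 with the epithelial covariate. Lama3, the alpha chain of the laminin that anchors basal epithelial cells through hemidesmosomes, lies at chr18:12333819-12583013 on the plus strand. It had 8.25, 7.24 and 10.4 CPM in the metformin mice, against 10.7, 20.9 and 15.2 CPM in the control mice. Here the metformin mouse nearest to the controls, mouse 3, lay just below control mouse 1, and the log2 fold change of Lama3 was -0.86 (SE 0.28, adjusted p = 0.576).

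Of the beta and gamma chains, Lamb3 stood out from Lamb1, Lamb2, Lamc1 and Lamc3. Lamb3 (chr1:193207699-193343878, plus strand) encodes the beta chain that pairs with Lama3 in the epithelial anchoring laminin. It had 13.9, 9.72 and 17.8 CPM in the metformin mice, against 58.3, 74.0 and 13.9 CPM in the control mice. Control mouse 3 lay inside the metformin range, so the groups overlapped. The log2 fold change of Lamb3 was -1.82 (SE 0.55, adjusted p = 0.551), -2.26 without control mouse 3 (adjusted p = 0.0302) and -0.01 with control mouse 3 as the only control. The other 4 chains, which form the common beta and gamma arms of laminins and, for Lamc3, a less frequent gamma arm, had log2 fold changes between -0.09 for Lamb1 and 0.24 for Lamc3. Lamc1, the gamma chain of most laminins and the highest of the class per length, had 245, 163 and 309 CPM in the metformin mice, against 158, 169.5 and 318 CPM in the control mice, with a log2 fold change of 0.15 (SE 0.34).

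Laminin alpha and beta chains were also compared as shares of the summed FPKM of their kind, which describes the make-up of the transcripts whatever their total, and these shares were not tested. Lama4 made up 58.9 ± 1.67% of alpha chain FPKM in metformin mice and 52.6 ± 3.86% in control mice, with no overlap between the groups, and Lama3 2.40 ± 0.217% and 4.37 ± 1.87%, also with no overlap (SD, n = 3 each). Lama1 made up 2.00 ± 0.226% in metformin mice and 5.05 ± 3.48% in control mice, where control mouse 3, at 1.85%, lay within the metformin range. The share of Lamb3 among beta chains showed the difference between controls most plainly. It was 5.33, 5.18 and 6.37% in the metformin mice, against 25.1, 27.5 and 4.77% in the control mice.

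**Figure D3:**
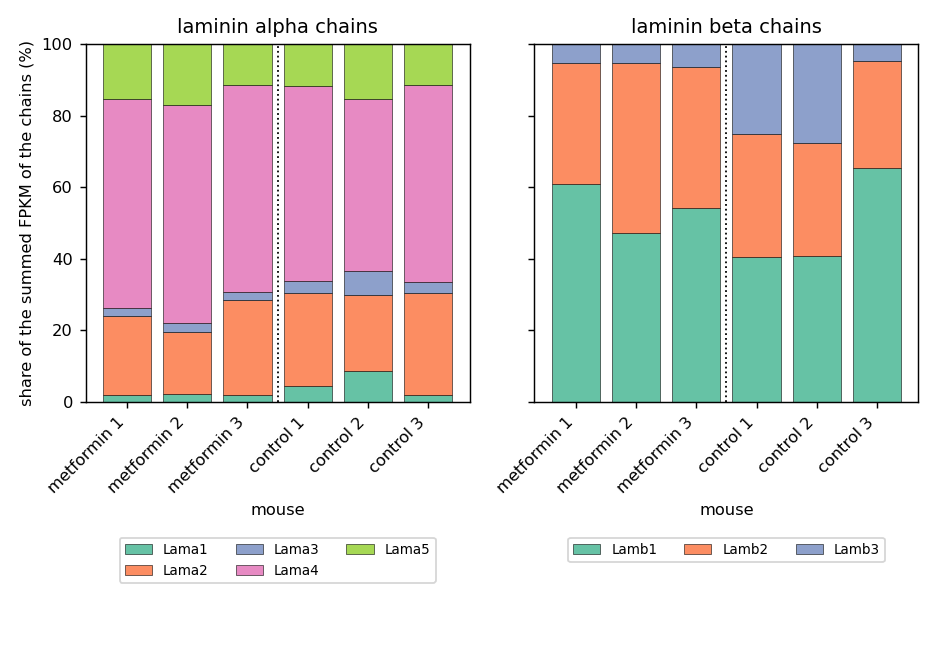
Share of each laminin chain in the summed FPKM of the alpha or beta chains (y axis, percent), stacked for each mouse, with metformin mice left of the dotted line and control mice right of it. Lamb3 takes 5.18 to 6.37% of the beta chains in metformin mice and 4.77% in control mouse 3, but 25.1 and 27.5% in control mice 1 and 2.

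The linkers and proteoglycans of the basement membrane did not pass the thresholds. Nid1 and Nid2 encode nidogens, Hspg2 perlecan and Agrn agrin, both heparan sulfate proteoglycans, and their log2 fold changes lay between -0.33 (Agrn, SE 0.24) and 0.32 (Hspg2, SE 0.20). Nid1 was the highest of them per length and had 336, 223 and 461 CPM in the metformin mice, against 263, 271 and 617 CPM in the control mice, with a log2 fold change of -0.17 (SE 0.41). Both groups spanned a wide range, and mouse 3 was the highest in each. Hspg2 had 188, 228 and 259.7 CPM in the metformin mice, against 163, 169 and 208 CPM in the control mice, so control mice 1 and 2 lay below every metformin mouse and control mouse 3 did not.

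The next class holds genes grouped here as basement membrane linkers. They are Npnt (nephronectin, an integrin ligand), Egflam (pikachurin, a dystroglycan ligand) and the Fraser complex genes Fras1, Frem1 and Frem2. Frem2 (chr3:53513938-53657355, minus strand), a membrane protein of that complex, had 1.62, 3.01 and 2.40 CPM in the metformin mice, against 4.14, 7.30 and 4.79 CPM in the control mice. The groups did not overlap, and the lowest control was mouse 1, where for Spp1, Tnc and Lamb3 it was mouse 3. The log2 fold change of Frem2 was -1.21 (SE 0.36, adjusted p = 0.541), just short of the thresholds, and -1.03 with control mouse 3 as the only control. Its level was low, 0.169 ± 0.0445 FPKM in metformin mice and 0.420 ± 0.144 FPKM in control mice (SD, n = 3 each). Npnt had 5.53 to 7.94 CPM in metformin mice and 6.38 to 19.1 CPM in control mice, with a log2 fold change of -0.82 (SE 0.40, adjusted p = 0.708). Egflam, the highest of these genes per length, varied little, with 26.2, 25.9 and 24.7 CPM in the metformin mice, against 19.7, 30.6 and 29.2 CPM in the control mice and a log2 fold change of -0.05 (SE 0.19). Fras1 and Frem1 had log2 fold changes of -0.06 (SE 0.58) and 0.37 (SE 0.59), at mean levels over the 6 mice of 0.0295 and 0.353 FPKM.

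In the class of tenascins and thrombospondins only Tnc had an unadjusted p under 0.05. Tnxb, which encodes tenascin X of collagen-rich connective tissue, was the highest of the class per length. It had 122, 163.9 and 278 CPM in the metformin mice, against 195, 163.9 and 260.2 CPM in the control mice, and a log2 fold change of -0.13 (SE 0.33), and all control mice lay within the metformin range. The thrombospondins, adhesive glycoproteins of which thrombospondin 1 activates latent TGF-beta, had log2 fold changes of -0.55 (Thbs1, SE 0.55), -0.44 (Thbs2, SE 0.41), 0.05 (Thbs3, SE 0.35) and -0.37 (Thbs4, SE 0.51). Thbs1 differed most among the metformin mice, at 12.4, 8.61 and 43.0 CPM, against 24.9, 32.5 and 36.5 CPM in the control mice. Metformin mouse 3 was the highest of all 6 mice for Thbs1, and without it the log2 fold change was -1.58, past the thresholds.

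Fibronectin and vitronectin, which share with osteopontin the binding of RGD integrins, did not follow Spp1. Fn1 had 209, 77.6 and 455 CPM in the metformin mice, against 229, 46.5 and 465 CPM in the control mice. The levels of Fn1 spread widely within each group, with mouse 3 the highest and mouse 2 the lowest in both, and the log2 fold change was 0.00 with an SE of 0.83. Vtn had a log2 fold change of -0.04 (SE 0.21).

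Of the 10 elastic fiber genes, Mfap4 and Fbln1 had the lowest log2 fold changes. Mfap4 (chr11:61485431-61488900, plus strand, with 4.63% of its exonic bases shared with Mapk7 on the opposite strand) encodes a microfibril protein that binds elastin and collagen. It had 3.67, 7.77 and 9.04 CPM in the metformin mice, against 19.0, 35.5 and 8.99 CPM in the control mice. Control mouse 3 lay just below metformin mouse 3, so the groups overlapped. The log2 fold change of Mfap4 was -1.63 (SE 0.52, adjusted p = 0.575), -2.0 without control mouse 3, where it passed the thresholds, and -0.40 with that mouse as the only control. Fbln1, a fibulin of basement membranes and elastic fibers, had 14.0 to 57.8 CPM in metformin mice and 43.7 to 92.5 CPM in control mice, with a log2 fold change of -1.10 (SE 0.50, adjusted p = 0.681), which was -1.73 and past the thresholds without metformin mouse 3.

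Apart from Mfap4, no elastic fiber gene had an unadjusted p under 0.05. The log2 fold changes were 0.35 for Eln (elastin, SE 0.20), 0.60 for Mfap2 (a microfibril glycoprotein, SE 0.34), 0.34 for Emilin1 (an elastin-associated protein, SE 0.25), 0.17 for Fbln5 (a fibulin needed for elastic fiber assembly, SE 0.20) and 0.07 for Fbln2 (SE 0.27). The fibrillin genes Fbn1 and Fbn2 had 0.08 (SE 0.54) and -0.80 (SE 0.83), and 20.1% of the exonic bases of Fbn1 are shared with Gm9913 on the opposite strand. Mfap5, a microfibril protein and the highest of the class per length, had 52.6, 26.1 and 75.6 CPM in the metformin mice, against 47.1, 41.6 and 70.5 CPM in the control mice, and a log2 fold change of -0.05 (SE 0.38). As for Fn1, mouse 3 of each group had the highest level of Mfap5 and mouse 2 the lowest.

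The genes of SPARC, periostin, matrilin 2, dermatopontin and the small proteoglycans, several of them among the most abundant per length, did not pass the thresholds. Sparc, a calcium-binding matricellular protein of fibroblasts, adipose stroma and endothelium, had 1138, 912 and 1148 CPM in the metformin mice, against 691, 692 and 1242 CPM in the control mice, with a log2 fold change of 0.28 (SE 0.30). Control mice 1 and 2 lay below every metformin mouse, and control mouse 3 above all of them. Postn (periostin, which promotes collagen cross-linking) and Matn2 (matrilin 2) had log2 fold changes of -0.02 (SE 0.46) and -0.19 (SE 0.28). Dcn encodes decorin, the main small proteoglycan on collagen fibrils, and had 827, 647 and 1112 CPM in the metformin mice, against 829, 957 and 1252 CPM in the control mice, with a log2 fold change of -0.23 (SE 0.29). Lum (lumican), Bgn (biglycan) and Dpt (dermatopontin) had log2 fold changes of -0.13 (SE 0.36), -0.41 (SE 0.24) and -0.08 (SE 0.42).

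**Figure D4:**
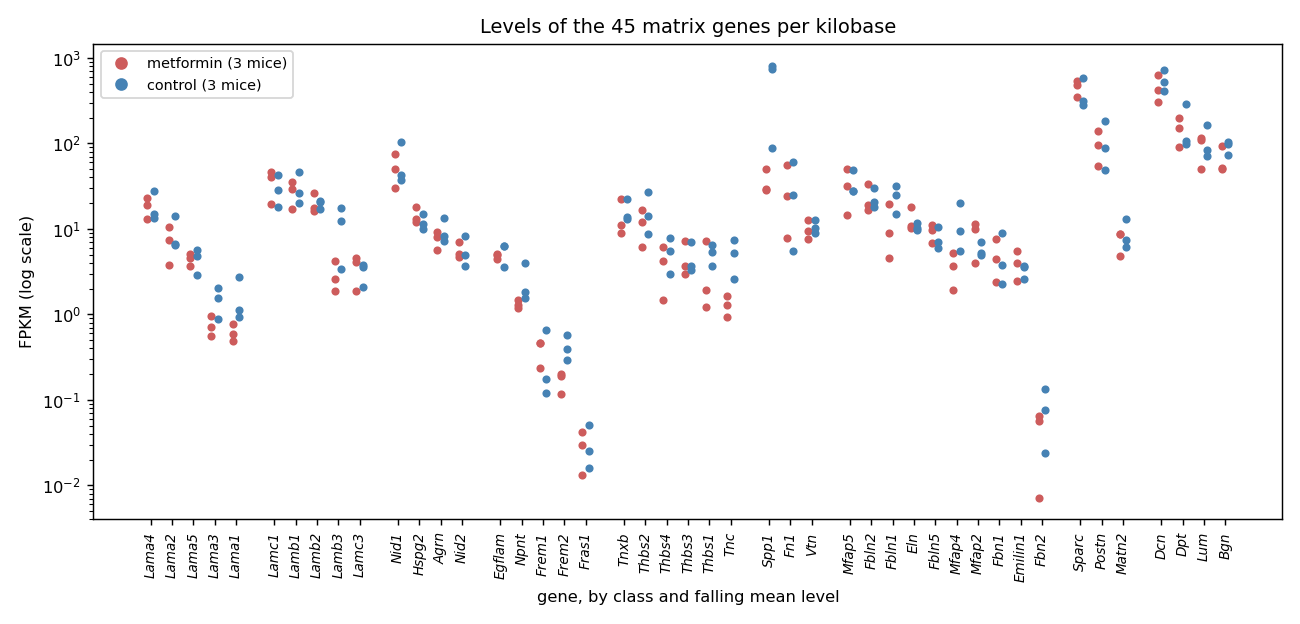
FPKM on a log scale (y axis) of the 45 matrix genes in each mouse, grouped by class and ordered by falling mean within it, with metformin mice in red left of control mice in blue. Most genes overlap between the groups, Spp1 spans 28.7 to 50.1 FPKM in metformin mice and 87.6 to 814 FPKM in control mice, and Fbn2 and Fras1 are the lowest.

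Levels per length differed widely among the 45 genes. Over the 6 mice, 5 genes averaged more than 100 FPKM, namely Dcn (504), Sparc (425), Spp1 (292), Dpt (156) and Postn (102), while 16 lay between 10 and 100, 20 between 1 and 10, and 4 (Frem1, Frem2, Fbn2 and Fras1) under 1. The place of Spp1 in this order was set by control mice 1 and 2, since it averaged 35.9 ± 12.3 FPKM in metformin mice and 549 ± 401 FPKM in control mice (SD, n = 3 each). Nid1 (56.6), Mfap5 (33.4), Lamc1 (32.7) and Lama4 (18.6) led their classes.

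The 45 genes fell into different patterns over the mice. As the genes were chosen with earlier results of these data known, the patterns are not independent of that choice. Metformin mouse 3 had the highest level of 11 genes (24.4%, against 11.9% of all features tested), among them Thbs1, Eln, Mfap2 and Hspg2, and metformin mouse 2 had the lowest level of 17 (37.8%, against 18.5%). Control mouse 3 was the highest for 21 genes (46.7%, against 21.4% of all features), among them Lama2, Lama4, Lamb1, Lamc1, Nid1, Fn1, Fbn1, Postn, Sparc, Dcn, Lum and Dpt. Control mouse 2 was the highest for another 11 genes, a share of 24.4% that is near the 21.3% of all features. They were Lama1, Lama3, Lamb3, Agrn, Npnt, Egflam, Frem2, Tnc, Vtn, Fbln1 and Mfap4. Spp1 was the only gene with its highest level in control mouse 1. Controls 1 and 2 both lay above every metformin mouse for 9 genes (Lama1, Lama3, Lamb3, Npnt, Frem2, Tnc, Spp1, Fbln1 and Mfap4), and 13.5% of all features had this order. Both lay below for 5 genes (Lama4, Nid2, Hspg2, Frem1 and Sparc), a share near the 12.8% of all features. Together these 14 genes are 31.1% of the 45, against 26.3% of all features. These groupings were read from the values and carry no test.

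The summed markers of fibroblasts, epithelium, fat and skeletal muscle also varied over the mice. The sum of 8 fibroblast markers was 2931, 1611 and 3451 CPM in the metformin mice, against 1391, 1151 and 3189 CPM in the control mice, so mouse 3 was the highest in each group, and 0 of the 8 markers passed the thresholds. The epithelial sum given above was highest in control mouse 2. The share of matrix genes highest in that mouse, 24.4%, was near the 21.3% of all features, so it marks no pattern of these genes. The sum of 9 basal and myoepithelial markers was 663, 405 and 567 CPM in the metformin mice, against 566, 857 and 642 CPM in the control mice. Oxtr alone made up 240 CPM of the sum in metformin mouse 1, so the overlap of these sums rested largely on that marker. Of the 9 log2 fold changes, 7 lay below 0, with 1 past the thresholds (lower), and 2 above it, among them Oxtr at 0.78 (SE 0.52). The sum of 11 luminal markers was 1125, 813 and 916 CPM in the metformin mice, against 1194, 2040 and 1254 CPM in the control mice, with no overlap, and 10 of 11 log2 fold changes lay below 0, with 2 past the thresholds (lower). One of them was Elf5, a regulator of alveolar cells named here after its values were seen, with 29.0, 25.8 and 35.5 CPM in the metformin mice, against 168, 249.8 and 29.8 CPM in the control mice. The sum of 7 adipocyte markers ranged between 10890.4 and 14613 CPM in metformin mice and between 8716 and 11666 CPM in control mice, with 7 of 7 log2 fold changes above 0 (median 0.38), 1 at an unadjusted p under 0.05, 2 without overlap and 0 past the thresholds. The part of these cell types in the patterns was not tested.

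**Figure D5:**
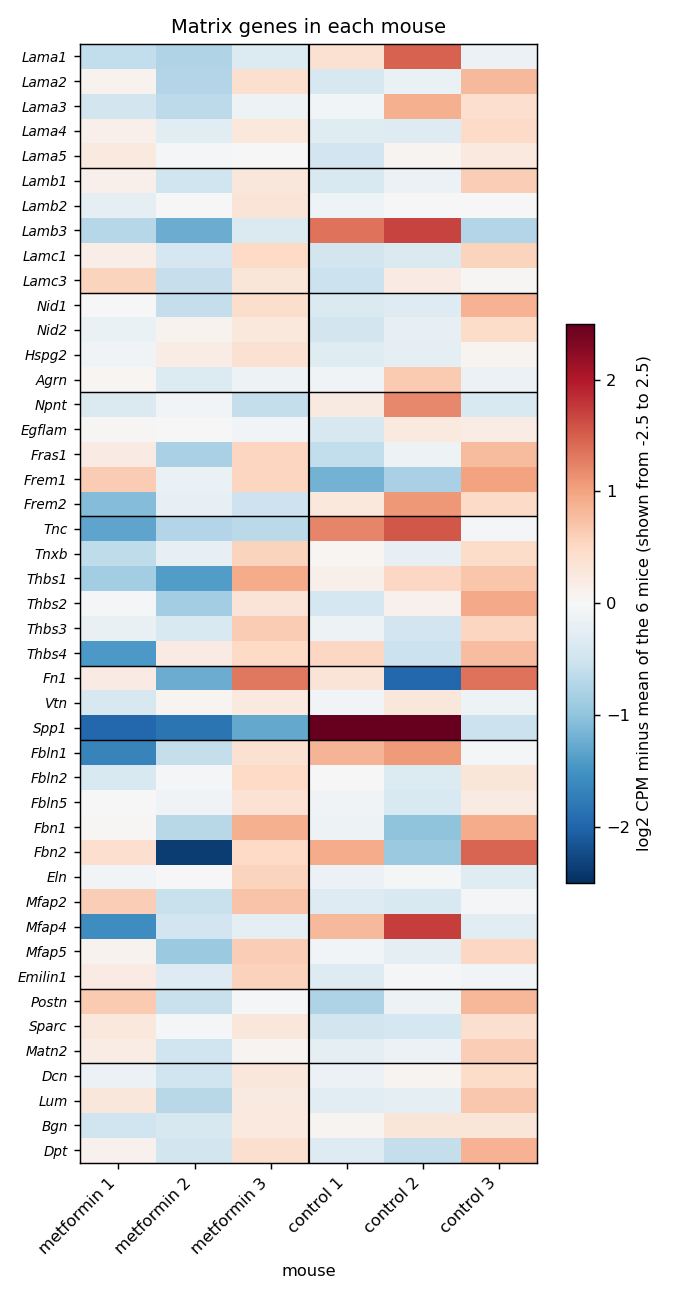
Log2 CPM of each of the 45 matrix genes minus its mean over the 6 mice (color, cut off at the ends of the scale), with genes in rows by class and mice in columns, metformin left of control. Red cells gather in control mouse 2 for genes such as Lama1, Lamb3, Tnc and Mfap4 and in control mouse 3 for genes such as Nid1, Fbn1 and Dpt, and Spp1 is far above its mean in control mice 1 and 2.

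Matrix proteins act through receptors and are cross-linked by enzymes, and 77 of 86 further genes of this kind, in 3 lists, were tested. Past the thresholds, 4 were lower in metformin mice (5.19%, against 1.28% of all features) and 0 higher (against 0.421%), and at an unadjusted p under 0.05, 7 were lower (9.09%, against 4.85%) and 2 higher (2.60%, near the 2.68% of all features). The count past the thresholds was 7 without control mouse 3, where 4.06% of all features passed. It was 1 with the epithelial covariate, against 0.446% of all features. In each fit without metformin mouse 1, metformin mouse 3 or control mouse 2 it was 2, against 0.89, 1.2 and 0.664% of all features. The 4 were the integrin subunits Itga8, Itga6 and Itgb8 and the basement membrane netrin Ntn4. Itga8, whose integrin binds nephronectin, osteopontin and tenascin C, had 12.1, 10.2 and 10.8 CPM in the metformin mice, against 35.5, 59.9 and 18.5 CPM in the control mice (log2 fold change -1.78, SE 0.39). The groups did not overlap for Itga8, and control mouse 3 was again the lowest control, as for Spp1 and Tnc. The log2 fold changes of Itga6, a subunit of laminin receptors, of Itgb8, a partner of the alpha V chain, and of Ntn4 were -0.82 (SE 0.18), -1.41 (SE 0.35) and -0.80 (SE 0.21), and for these 3 genes the groups did not overlap either. Of the 29 receptors 3 passed, of the 39 other matrix genes tested 1, and of the 9 cross-linking enzymes 0, whose median log2 fold change was 0.36.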

How the data were processed

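RNA was sequenced from whole mammary glands of 3 metformin and 3 control mice, 1 library per mouse, grouped by the treatment label. Reads were trimmed of adapters and low-quality bases and mapped to GRCm38 for the authors by a service provider, with HISAT2 and StringTie listed in the submitters' processing notes. Neither versions nor the counting tool, annotation and strand setting are stated in the sources used here, so reads of overlapping genes cannot be told apart. The deposited gene counts are whole numbers that were not normalized. The FPKM values, which the authors computed from transcript length and mapped fragments, served to compare levels between genes and as an alternative.

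The main analysis of the counts used edgeR 4.0.16 in R 4.3.3 (filterByExpr, TMM, quasi-likelihood F test, Benjamini-Hochberg over 15925 features). The size of each log2 fold change over the square root of its F value gave the SE. Alternatives used DESeq2 1.42.0, limma 3.58.1 (voom with quality weights, and log2 FPKM with a pseudocount of 1 or 0.1), RLE normalization, other filters, an epithelial covariate, the replicate number as a block, control mouse 3 as the only control, and each mouse left out. Only the main edgeR fit was tested on simulated counts, and the alternatives were not. Positions come from GENCODE vM21, in which all 45 identifiers were found, and promoters from RefSeq. The 45 genes and all lists were chosen with earlier results of these data known. Values in every mouse are given for those of the 45 genes past the thresholds, at an unadjusted p under 0.05 or without overlap, and for the gene with the highest mean FPKM of each class, and genes of the receptor, matrix and enzyme lists are named where past the thresholds. Values of Hspg2, Fn1 and Thbs1 were added after they were seen. Shares of laminin gamma chains are not reported here. The mice are separate animals, so p-values weigh the difference between groups against the spread between mice, which the fit partly shares across genes.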

Additional observations from a re-analysis of the deposited data

How the results depend on the processing

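Against 2 of 45 matrix genes past the thresholds, all lower, the count was 7 with DESeq2, 5 with limma-voom and quality weights, 6 with no filter on low counts, and 0 with log2(FPKM + 1) and no filter, with the epithelial covariate and with control mouse 3 as the only control. Over all features, 1.70% passed, against 3.26, 2.52, 1.75, 0.25, 0.446 and 1.65% in those settings in the same order. The last is a fit that takes the spread of that control to be that of the metformin mice. All genes counted in these settings were lower. Leaving out each mouse gave 2 to 5 genes, while 0.664 to 4.06% of all features passed in those fits. Of these genes 2 to 5 were lower and 0 to 1 higher (Mfap2, without metformin mouse 2). At an adjusted p under 0.05 the count was 0, against 3 with DESeq2 and 0 to 3 with each mouse left out. Tnc and Spp1 stayed past the thresholds whichever of the 6 mice was left out, with log2 fold changes of -2.27 to -1.60 and -4.45 to -3.57. Non-overlapping groups numbered 5, against 28 with control mouse 3 as the only control (62.2%, and 60.4% of all features) and 7 to 14 with each mouse left out (15.6 to 31.1%, and 21.0 to 26.3% of all features). For the receptor, matrix and enzyme lists, every alternative was added after seeing the data. Their count was 4, against 0 with log2(FPKM + 1) and no filter, 1 with the epithelial covariate and 2 to 7 with each mouse left out. Of all features, 0.25, 0.446 and 0.664 to 4.06% passed in those fits. The cause of these differences was not tested. With the replicate block, 2 genes passed, Tnc and Frem2, against 0.741% of all features in that fit. Spp1 there had a log2 fold change of -3.55 (adjusted p = 0.873, edgeR), short of the thresholds. The labels give both groups the same replicate numbers. Deviations from the group mean correlated at -0.35, -0.14 and -0.01 between same-numbered mice, and at 0.29 between metformin mouse 2 and control mouse 1. With 3 mice per group, such values cannot settle whether the numbers pair the mice, and the main fit took the mice as unpaired. Of the log2 fold changes of single genes under the alternatives, 730 stayed on their side of the thresholds, 23 gained a call and 7 lost one. Among the 730, 635 kept their sign and 95 changed it, and sign changes occurred in 28 genes, none of them in a value past the thresholds. The genes below 0 numbered 16 to 35 with each mouse left out and 18 with limma-voom, against 28. Fbn2 and Fras1 were left out where a filter removed them, which left 44 genes at a minimum of 10 counts in every sample and 43 at a mean FPKM of 0.1.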
